A study of Mus musculus with 48 samples.

Results

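Cirbp and Rbm3, the 2 genes of the mouse that encode the small cold-inducible RNA-binding proteins, were followed here in 4 brain regions of mice flown on the International Space Station and of ground controls. The 2 genes were chosen by their flight against ground differences in these same tables, so those differences are given as a description and carry no test. They are 2 of the 15782 genes in the tables. The effect of the antioxidant BuOE within flight and within ground mice, and the level in each region, were tested. These contrasts were not used for the choice. The BuOE contrasts are made from the same mice, however, so they are not independent of it. The region contrasts also average over these flight and ground mice, and their independence of the choice was not tested.

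RNA was measured in situ with GeoMx digital spatial profiling (DSP), in which probes to the whole transcriptome are hybridized to a fixed brain section and their tags are released by UV light from 1 area of illumination (AOI) at a time and sequenced. The AOIs lay in the Cornu Ammonis 1 (CA) and dentate gyrus (DG) of the hippocampus, the frontal cortex (FCT) and the cortex (CT), 1 AOI per region and mouse. All mice were male C57BL/6, aged 10 weeks at launch, with no transgene or deletion named in the labels. Flight mice (FLT) spent 35 days aboard, and ground controls (GC) spent 35 days in flight hardware cages under a protocol that began 3 days later. Both were kept at an ambient 26 to 28 °C with 12 h of light a day and the same food. Each mouse received either saline (SAL) or BuOE, a manganese porphyrin that mimics superoxide dismutase, at 1 mg/kg in 0.2 mL under the skin from 7 days before launch and weekly thereafter. After splashdown the flight mice arrived at the laboratory in at most 20 h, and all mice were bled under ketamine and xylazine anesthesia. These arms made 4 groups of 3 mice, named FLT-SAL and FLT-BuOE for flight and GC-SAL and GC-BuOE for ground, and the sections of each group were mounted on 1 slide of its own. Slide and group therefore cannot be told apart in any comparison below. The body temperature of the mice, and their time between landing and death beyond the limit above, are not given in the sources used here.

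Cirbp (cold-inducible RNA-binding protein) and Rbm3 (RNA-binding motif protein 3) each carry 1 RNA recognition motif followed by a glycine-rich tail, and they are best known as proteins that rise in mammalian cells under mild cooling and fall at fever temperature. They bind mRNA and affect its stability, polyadenylation and translation. In the brain, Rbm3 is known for keeping synapses intact during and after cooling, through its target Rtn3, and Cirbp for tying the daily body temperature rhythm to the clock gene Clock and for acting as an alarm signal when released from cells.

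Cirbp lies on chromosome 10 of GRCm38 (80165985 to 80172786, plus strand, 7 transcripts in the GENCODE annotation) and overlaps no other annotated gene. Rbm3 lies on chromosome X (8138975 to 8145880, minus strand, 11 transcripts), and its span is overlapped on the other strand by the antisense gene Rbm3os. The probe for each gene was identified by its counts, and 1 probe matched each gene. Levels below are Q3-normalized counts, in which the counts of an AOI are multiplied by 1 factor so that the upper quartile over genes is the same (40.02) in every AOI. They can be compared between samples and regions for 1 gene, but not between Cirbp and Rbm3, since probes bind unequally well.

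The RefSeq promoter table held windows for 1 of the 2 genes, Cirbp, which had 2 windows of 250 bases before to 50 after an annotated start. The first, chr10:80167589-80167888 on the plus strand of GRCm38.p6, is shown because cold induction of Cirbp has been traced to a short element, the mild cold response element TCCCCGCC, in its 5′ flank. Capitals mark the 1 match to that element in the window.
Cirbp promoter: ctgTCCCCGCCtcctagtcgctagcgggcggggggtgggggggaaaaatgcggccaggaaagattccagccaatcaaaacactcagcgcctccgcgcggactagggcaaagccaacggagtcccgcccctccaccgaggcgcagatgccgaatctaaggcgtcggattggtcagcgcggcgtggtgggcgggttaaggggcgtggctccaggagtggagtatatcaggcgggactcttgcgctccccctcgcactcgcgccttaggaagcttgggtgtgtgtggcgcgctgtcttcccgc
The match began at base 4 of the window, 247 bases before the annotated start. On both strands, TCCCCGCC occurred in 5.38% of the 32851 promoter windows in the table. The GC box GGGCGG, the core of the site bound by Sp1, was found 3 times in this window and 4 times in the second, and in 35.7% of all windows, with no overlap with the element above. The cAMP response element TGACGTCA (1.79% of all windows) and the core GAANNTTC of the heat shock element (7.86%) were found in neither Cirbp window. The matches are a description of letters and carry no measurement of binding.

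Total counts per AOI ranged from 322629 to 1579380, with a median of 652040. They were highest in FLT-SAL (median 991426) against 628307.5 in GC-SAL, whereas under BuOE the flight AOIs were the shallower ones (median 548888 in FLT-BuOE and 639735 in GC-BuOE). Cirbp was counted 13 to 145 times per AOI, and Rbm3 31 to 255 times. The lowest Cirbp count, 13, has an exact 95% Poisson interval of 6.92 to 22.2, and the lowest Rbm3 count, 31, one of 21.1 to 44.0, which cover counting error only. Cirbp stood 1.41 to 7.71 times above the negative-control probes of its AOI and Rbm3 2.94 to 13.2 times. By mean level Cirbp ranked 2518 and Rbm3 662 among the 15782 genes. The region labels matched region markers: the summed level of 6 dentate granule cell markers was 380 to 560 in DG and 151 to 212 elsewhere, that of 6 CA1 pyramidal markers was 426 to 633 in CA and 142 to 311 elsewhere, and that of 6 cortical projection neuron markers was 292 to 591 in FCT and CT and 169 to 246 in the hippocampus. In such AOIs, more cells expressing a gene and more RNA per cell cannot be told apart.

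Cirbp was higher in flight than in ground mice in each of the 4 regions under saline. In CA, the FLT-SAL mice had Q3-normalized counts of 47.1, 46.2 and 58.5 and the GC-SAL mice 30.8, 28.6 and 34.1, so that every flight mouse lay above every ground mouse. In DG, the values were 59.3, 53.0 and 75.04 in flight and 41.4, 43.7 and 40.02 on the ground. In FCT, they were 41.7, 62.9 and 65.2 in flight and 29.5, 33.0 and 36.5 on the ground. In all 4 regions the groups did not overlap, and FCT had the widest spread among flight mice, with its first mouse close to the ground range. In CT, the flight mice had 59.7, 55.0 and 71.3 and the ground mice 43.7, 40.7 and 32.6. The FLT-SAL mouse with the highest Cirbp was the same animal in all 4 regions, mouse 3, with a mean over regions of 67.5 against 51.9 and 54.3 in the other two. The GC-SAL mice, by contrast, were alike, with means over regions of 36.3, 36.5 and 35.8.

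Under BuOE, Cirbp was also higher in flight in each region, with 1 overlap. In CA, the FLT-BuOE mice had 48.3, 40.02 and 52.2 and the GC-BuOE mice 27.4, 34.7 and 38.9, which left a narrow gap between the groups. In DG, the flight values of 55.0, 80.05 and 67.8 were well clear of the ground values of 33.4, 28.8 and 32.2. In FCT, the flight mice had 52.9, 82.7 and 52.5 and the ground mice 35.7, 31.9 and 31.8. FLT-BuOE mouse 2 had the highest Cirbp of its group in DG, FCT and CT and the lowest in CA. In CT, the flight mice had 47.8, 81.2 and 60.8 and the ground mice 42.3, 49.4 and 46.2, so that here the lowest flight mouse lay below the highest ground mouse.

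Rbm3 was higher in flight as well, again in every region and under both treatments. In CA under saline, the flight mice had 89.5, 106.7 and 88.5 and the ground mice 67.7, 59.1 and 66.7. In DG, they had 126, 132 and 134 in flight and 64.9, 68.9 and 82.0 on the ground, the widest gap between groups seen for Rbm3. In FCT, the values were 96.6, 104.3 and 114.7 in flight and 65.3, 69.1 and 61.2 on the ground. The 3 flight mice in DG differed by little (130.6 ± 4.03, SD, n = 3), whereas those in CT were spread out. In CT, the flight mice had 84.4, 109.1 and 124.7 and the ground mice 52.2, 74.96 and 55.8, and the groups did not overlap in any region under saline.

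Under BuOE, Rbm3 in DG was 111.7, 133.8 and 113.4 in flight and 77.8, 73.8 and 70.0 on the ground. In FCT, it was 110.1, 111.2 and 93.8 in flight and 63.8, 68.2 and 60.03 on the ground. In CT, it was 111.0, 143.4 and 110.1 in flight and 89.2, 75.4 and 75.4 on the ground. These 3 regions again showed no overlap between the groups. In CA, the flight mice had 122.8, 88.9 and 100.9 and the ground mice 92.7, 69.4 and 61.7, so that 1 ground mouse lay within the flight range.

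**Figure D1:**
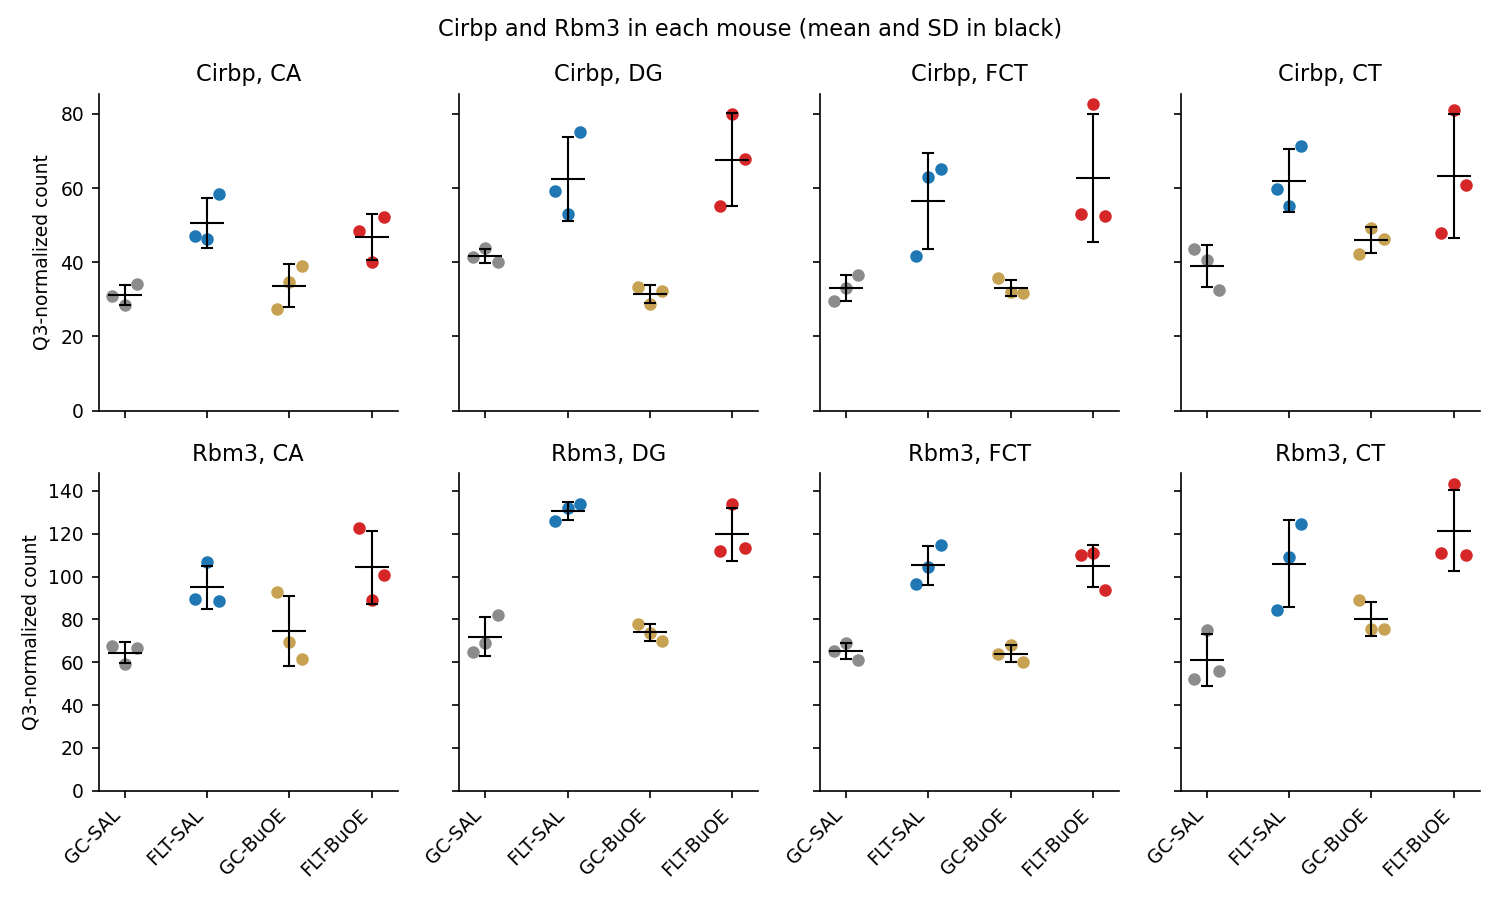
Q3-normalized counts (y axes, from 0) of Cirbp (upper row) and Rbm3 (lower row) in the 4 regions, 1 point per mouse, for GC-SAL, FLT-SAL, GC-BuOE and FLT-BuOE (x axes), with the mean and SD of 3 mice in black. The flight mice lie above the ground mice in each panel under both treatments, apart from the overlaps for Cirbp in CT and Rbm3 in CA under BuOE, where the ground mice reach 49.4 and 92.7.

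Flight mice all lay above ground mice for each gene in 4 of 4 regions under saline and in 3 of 4 under BuOE. Among all genes, the share with every flight mouse above every ground mouse under saline was 7.55% (CA), 7.39% (DG), 7.41% (FCT) and 5.14% (CT), and 5.09%, 5.16%, 3.71% and 5.43% under BuOE in the same order. Since the choice of the 2 genes used these contrasts, nothing is read from these shares.

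On the scale of log2(Q3-normalized count + 1), averaged over regions, Cirbp was higher in flight by 0.66 (SE 0.0997) under saline and by 0.71 (SE 0.0997) under BuOE, which are folds of 1.58 and 1.63. Rbm3 was higher by 0.72 (SE 0.0827) under saline and by 0.62 (SE 0.0827) under BuOE, folds of 1.65 and 1.53. Ordered by this averaged difference among the 15782 genes, from the highest down, Cirbp ranked 8 and Rbm3 6 under saline, and 3 and 4 under BuOE. The averages thus differed little between genes or treatments, while single regions varied more. For Cirbp, the difference under saline was 0.68 (CA), 0.56 (DG), 0.74 (FCT) and 0.66 (CT) (SE 0.179 to 0.218). Under BuOE it was 0.47, 1.07, 0.87 and 0.42 in the same order. For Rbm3, it was 0.55, 0.86, 0.68 and 0.79 under saline (SE 0.143 to 0.176) and 0.49, 0.68, 0.70 and 0.59 under BuOE. The smallest of the 16 differences, Cirbp in CT under BuOE, was a fold of 1.34, and the largest, Cirbp in DG under BuOE, one of 2.09. In CA, Cirbp on the ground stood only 1.59 to 1.77 (GC-SAL) and 1.41 to 1.86 (GC-BuOE) times above the negative-control probes. With their value subtracted, Cirbp under saline was at 1.3 in CA, 1.02 in FCT, 0.938 in CT and at most 0.74 in DG. Under BuOE it was then at 1.08 in CA, 1.41 in DG, 1.28 in FCT and at most 0.534 in CT. The order of the regions for Cirbp thus depended on this subtraction.

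Across all genes, a call needed a Benjamini-Hochberg adjusted p under 0.05 by limma and a fold beyond 1.5. The 2 genes made up 8 gene and region pairs, of which 2 lay past this threshold under each treatment and 1 under several other settings. Since the genes were chosen by these values, that count is a description and nothing is read from it. The shares of all genes called higher in flight under saline were 0.127% (CA), 0.247% (DG), 0.0317% (FCT) and 0.0634% (CT), and under BuOE 0.019%, 0.0444%, 0.0127% and 0% in the same order. In CT under BuOE, where limma called 0 genes higher, 1049 genes had an unadjusted p under 0.05 in either direction, and edgeR and DESeq2 called 1 and 0 genes higher. Averaged over regions, limma called 0.076% of all genes higher and 0.019% lower in flight under saline, and 0.0253% higher and 0.0634% lower under BuOE. The 12 genes called higher under saline and the 4 under BuOE had 3 in common, Cirbp, Rbm3 and Ptgds, 25% of the first list and 75% of the second. Cirbp and Rbm3 were chosen by these same contrasts, so nothing is read from their presence in both lists or from these percentages. Ptgds, which encodes prostaglandin D synthase, was chosen for mention after its values were seen. The median total count was higher in flight than on the ground under saline and lower under BuOE, and the part of depth in the flight differences was not tested.

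**Figure D2:**
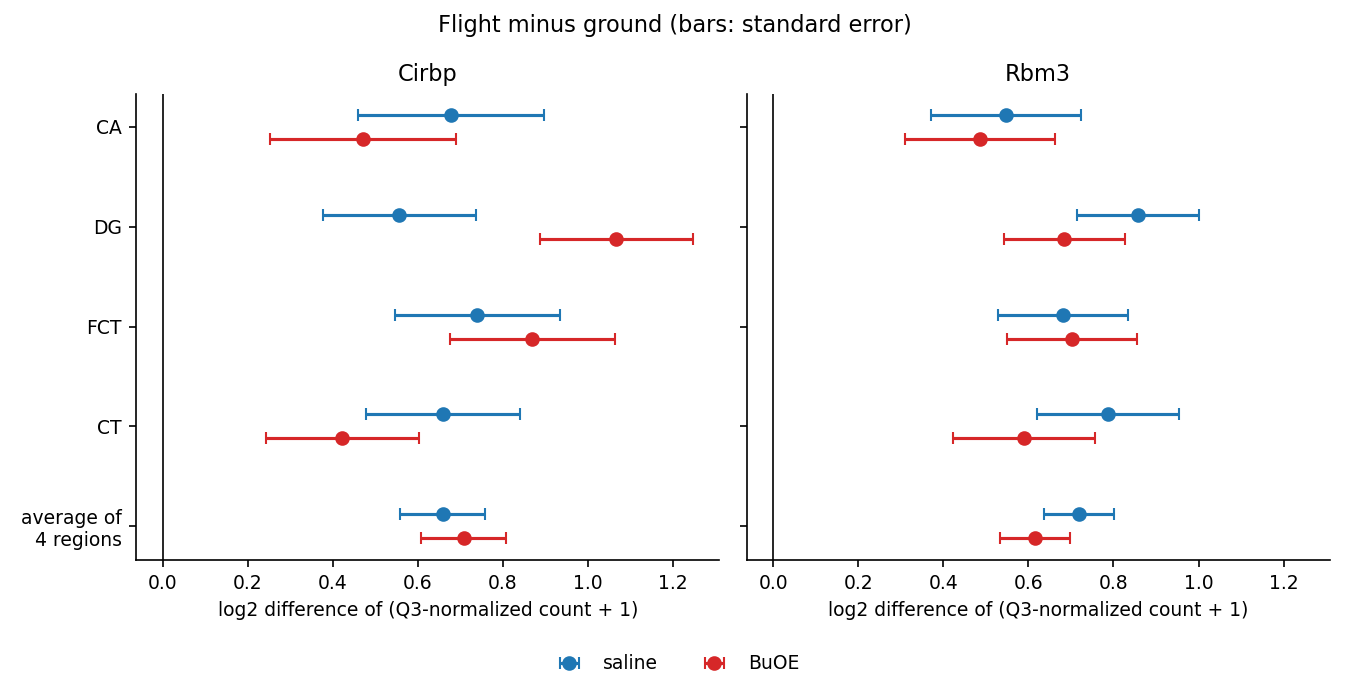
Flight minus ground difference of log2(Q3-normalized count + 1) (x axes) for Cirbp (left) and Rbm3 (right) in each region and averaged over the 4 regions (y axis), under saline and under BuOE, with bars of 1 standard error. All 20 differences lie above 0, from 0.42 to 1.07.

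The study gave BuOE to ask whether an antioxidant lessens the response of the brain to spaceflight. For the 2 genes, BuOE made no called difference in any region or on average. In flight, Cirbp averaged over regions was at 60.1 ± 10.1 in FLT-BuOE and 57.9 ± 8.40 in FLT-SAL (SD, n = 3 mice), a log2 difference of 0.04 (95% interval -0.16 to 0.23, limma adjusted p = 0.963). Rbm3 was at 113 ± 7.48 in FLT-BuOE and 109 ± 8.79 in FLT-SAL, a log2 difference of 0.05 (95% interval -0.12 to 0.21, limma adjusted p = 0.935). Both intervals lie within 1.5-fold in either direction, which does not show that the drug had no effect. Genes chosen as higher in flight under both treatments may also be drawn toward a small BuOE difference in flight. In single regions the BuOE difference in flight ran from -0.11 in CA to 0.14 in FCT for Cirbp, and from -0.13 in DG to 0.20 in CT for Rbm3. Of the 4 regional differences, 3 were above 0 for Cirbp and 2 for Rbm3, and limma called 0 of the 8. limma called 0.00634% of all genes for BuOE in flight in CA, then 0% in DG, 0.0317% in FCT and 0.0697% in CT, and 0.0317% averaged over regions. In DG, 978 genes had an unadjusted p under 0.05, and edgeR and DESeq2 called 7 and 0.

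On the ground, Cirbp averaged over regions was at 36.1 ± 1.31 in GC-BuOE and 36.2 ± 0.363 in GC-SAL, a log2 difference of -0.01 (95% interval -0.21 to 0.19, limma adjusted p = 0.997). Rbm3 was at 73.1 ± 7.15 in GC-BuOE and 65.7 ± 2.83 in GC-SAL, a log2 difference of 0.15 (95% interval -0.01 to 0.32, limma adjusted p = 0.997). The 2 largest regional differences on the ground had opposite signs. Cirbp in DG was at 33.4, 28.8 and 32.2 in GC-BuOE and 41.4, 43.7 and 40.02 in GC-SAL, a log2 difference of -0.40 (95% interval -0.76 to -0.04), with the groups not overlapping. By limma its unadjusted p was 0.0304 and its adjusted p 0.901. Rbm3 in CT was at 89.2, 75.4 and 75.4 in GC-BuOE and 52.2, 74.96 and 55.8 in GC-SAL, a log2 difference of 0.40 (95% interval 0.06 to 0.73), also without overlap. By limma its unadjusted p was 0.0205 and its adjusted p 0.9998. Neither passed the adjusted threshold. For 9.76% of all genes in DG and 8.2% in CT, both ground groups were likewise fully apart, in one direction or the other. For BuOE on the ground, limma called 0% of all genes in CA, DG and CT and averaged over regions, and 0.00634% in FCT. Where it called 0, the genes with an unadjusted p under 0.05 numbered 884 in CA, 822 in DG, 596 in CT and 736 on average, edgeR called 6, 5, 0 and 2 genes, and DESeq2 called 0 in each.

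The flight difference under BuOE minus that under saline is made from the contrasts that chose the genes, and genes chosen as high in both are drawn toward a small value, so it is given as a description. Averaged over regions it was 0.05 for Cirbp (95% interval -0.23 to 0.33) and -0.10 for Rbm3 (95% interval -0.33 to 0.13). The largest regional value was that of Cirbp in DG, where the flight difference was 0.56 under saline and 1.07 under BuOE. Their difference of 0.51 (SE 0.254) is the BuOE difference of 0.11 in flight minus that of -0.40 on the ground. limma called 0.00634% of all genes for this term in CA, then 0% in DG, 0.00634% in FCT and 0.019% in CT, and 0.152% averaged over regions. In DG, 1009 genes had an unadjusted p under 0.05, and edgeR and DESeq2 called 7 and 0. Nothing about the 2 genes is read from these shares. For BuOE in flight and on the ground, edgeR and DESeq2 likewise called neither gene in any region or on average, and at an unadjusted p under 0.05 limma passed 2 of 10 values on the ground and 0 of 10 in flight.

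**Figure D3:**
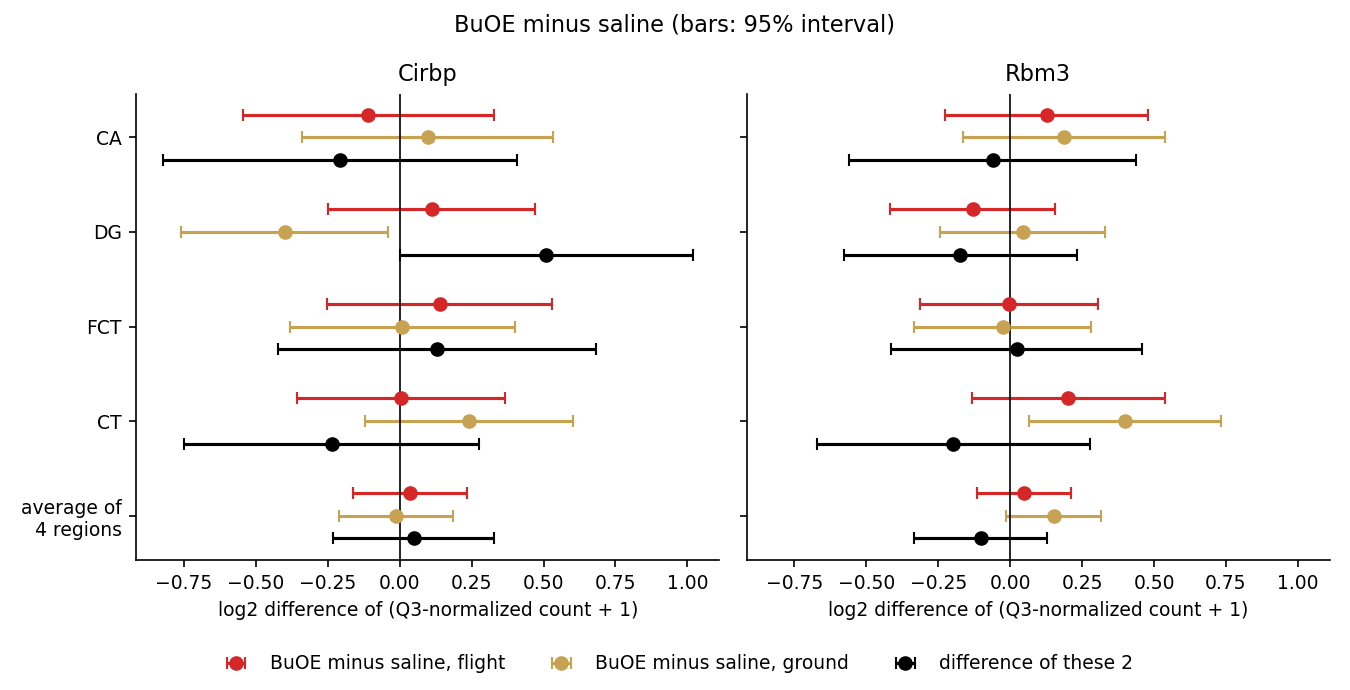
BuOE minus saline difference of log2(Q3-normalized count + 1) (x axes) in flight and on the ground, and the difference between these 2 values, for Cirbp (left) and Rbm3 (right) in each region and averaged over the 4 regions (y axis), with 95% intervals. All intervals span 0 apart from those of Cirbp in DG on the ground (-0.76 to -0.04), Rbm3 in CT on the ground (0.06 to 0.73) and the difference of both values for Cirbp in DG (0.0020 to 1.02). The intervals are not adjusted over genes, and that of the difference is a description, since the contrasts behind it chose the genes.

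Both genes stood above the negative-control probes in every AOI of the 4 regions. Among ground mice, Cirbp averaged 42.5 ± 5.72 in CT, 36.6 ± 5.95 in DG, 33.1 ± 2.62 in FCT and 32.4 ± 4.32 in CA (SD, n = 6 mice of both treatments). In flight the order was DG (65.0 ± 11.1), CT (62.6 ± 11.9), FCT (59.7 ± 14.1) and CA (48.7 ± 6.21). Each step between neighbours in these orders was smaller than the larger SD of the pair. Rbm3 on the ground averaged 72.9 ± 6.29 in DG, 70.5 ± 13.9 in CT, 69.5 ± 12.0 in CA and 64.6 ± 3.64 in FCT. In flight it averaged 125 ± 10.1 in DG, 114 ± 19.5 in CT, 105 ± 8.40 in FCT and 99.6 ± 13.6 in CA. The steps between neighbours were again smaller than the larger SD of the pair, and DG was the highest region for Rbm3 in both settings.

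Within the hippocampus, both genes were somewhat higher in DG than in CA when flight and ground mice were averaged. The DG mean was the higher one in FLT-SAL, GC-SAL and FLT-BuOE. In GC-BuOE it was not, with Cirbp at 31.5 in DG and 33.7 in CA, and Rbm3 at 73.9 and 74.6. For Cirbp the log2 difference over all mice was 0.28 (SE 0.0949, limma adjusted p = 0.0203) and was above 0 in 10 of 12 mice. For Rbm3 it was 0.21 (SE 0.0787, limma adjusted p = 0.0454) and was above 0 in 9 of 12 mice. Neither reached the fold threshold, so neither was called, where 4.1% of all genes were, and by adjusted p alone 23.6% of all genes passed. The Rbm3 value depended on single mice, since its adjusted p was under 0.05 in 3 of 12 fits that left out 1 mouse and reached 0.164 without FLT-BuOE mouse 2. For Cirbp, 9 of 12 such fits stayed under 0.05, and the highest value, 0.0829, was also without FLT-BuOE mouse 2. The negative-control probes differed between these regions, with 9.24 to 13.5 in DG and 16.1 to 20.9 in CA on the same scale. After their value was subtracted, the difference was 0.84 for Cirbp, which was then called, and 0.40 for Rbm3.

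No difference between FCT and CT passed the same test, with -0.21 for Cirbp (SE 0.0949, limma adjusted p = 0.490, below 0 in 8 of 12 mice) and -0.10 for Rbm3 (SE 0.0787, limma adjusted p = 0.838, below 0 in 9 of 12 mice). In this contrast 0.101% of all genes were called. Hippocampus against cortex gave -0.11 for Cirbp (SE 0.0671, limma adjusted p = 0.237) and 0.06 for Rbm3 (SE 0.0557, limma adjusted p = 0.528), where 3.18% of all genes were called.

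Among the 7344 genes with a mean above 2 times the negative-control value, the gene whose pattern was most like that of Cirbp was Rbm3, and the gene most like Rbm3 was Cirbp. Likeness was the Pearson correlation of log2(Q3-normalized count + 1) over 48 AOIs of 12 mice after the mean of each region was subtracted, and it was 0.81 for the pair. The AOIs share slides, and those of 1 mouse share an animal. Both genes were also chosen by their flight differences, which this correlation carries. The value and the ranks are therefore a description, and nothing is read from them about the pair. After Rbm3, Cirbp was most like 4930578G10Rik (0.75), Mt1 (0.75), Eml2 (0.75) and Grin1 (0.74). Mt1 encodes a metallothionein, a metal-binding stress protein, Eml2 a microtubule-associated protein and Grin1 a subunit of the NMDA glutamate receptor. Rbm3 was next most like Grin1 (0.76), Eml2 (0.75), 4930578G10Rik (0.74) and Stx3 (0.72), the last of which encodes a syntaxin of membrane fusion. The 2 rankings thus held 3 further genes in common.

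The likeness of the pair lay between groups more than within them. Most flight AOIs lay at the upper right of the plot of Rbm3 against Cirbp and most ground AOIs at the lower left, with some on the other side of a region mean. When the mean of each region and group was subtracted as well, the correlation of the pair fell to 0.20 over the 48 AOIs, and Rbm3 was then number 1899 of the genes ordered by likeness to Cirbp. Within groups it was 0.52 over the 24 flight AOIs and -0.40 over the 24 ground AOIs. AOIs of the same mouse share an animal, so the AOIs behind each value are not independent points. Neither value was tested, nor was their difference in sign. No tendency of the pair within flight or within ground mice is therefore read from them. These within-group values were computed after the likeness of the pair was seen.

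**Figure D4:**
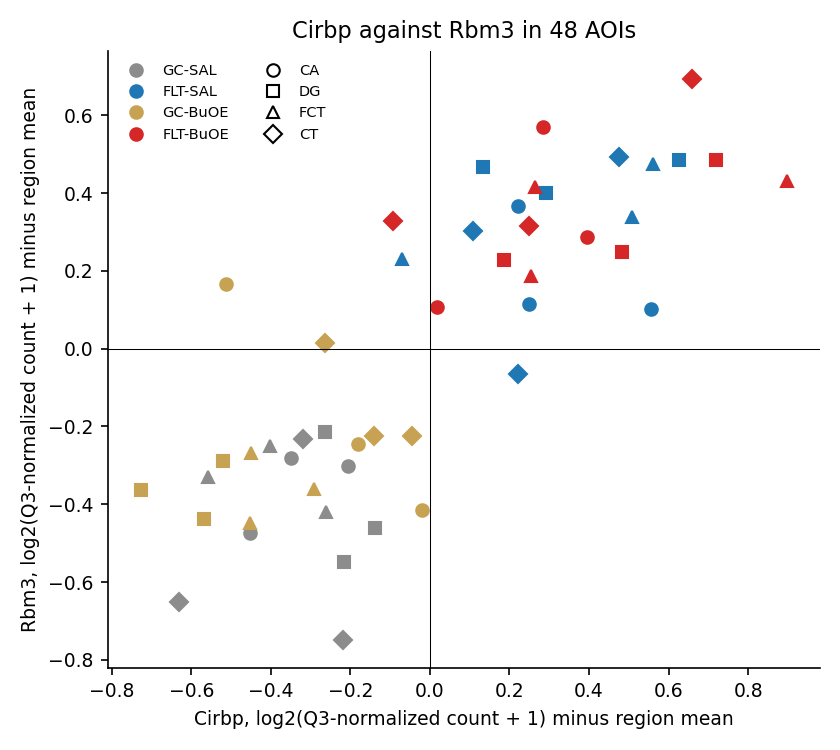
Rbm3 (y axis) against Cirbp (x axis), each as log2(Q3-normalized count + 1) minus the mean of its region, in 48 AOIs, with color for the group and shape for the region. Most flight AOIs lie at the upper right and most ground AOIs at the lower left, with some on the other side of a region mean. The correlation of 0.81 over all points falls to 0.20 when group means are removed.

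The 5 genes most like either member, besides the pair itself, showed flight differences that were mostly smaller. Averaged over regions, the log2 difference of 4930578G10Rik was 0.81 under saline and 0.46 under BuOE, and that of Mt1 was 0.74 and 0.33. Grin1 had 0.35 and 0.42, Eml2 0.46 and 0.42, and Stx3 0.40 and 0.50. Since likeness to the pair carries the flight difference with it, these values are given without a test. Mt1 was at 210 ± 25.1 in FLT-SAL and 125 ± 19.1 in GC-SAL (mean over regions, SD, n = 3 mice), and at 179 ± 24.1 in FLT-BuOE and 142 ± 15.4 in GC-BuOE.

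For scale, limma called 15 of all 15782 genes in the averaged flight contrast under saline and 14 under BuOE, and 1561 and 1616 had an unadjusted p under 0.05, so that a short list with no call does not stand apart from other genes. Of 25 listed genes for other RNA-binding proteins with recognition motifs, such as the hnRNP and SR families, 23 were measured. limma called 0 of them in flight under saline and 0 under BuOE, with 4 and 2 at an unadjusted p under 0.05, and edgeR and DESeq2 called 0 as well. Their median log2 flight difference was 0.03 under saline and 0.03 under BuOE, beside 0.01 and -0.02 over all genes. The largest values under saline were those of Srsf2 (0.36), Rbmx (0.25) and Hnrnpa0 (0.24), and under BuOE those of Hnrnpa2b1 (-0.39), Hnrnpdl (0.31) and Hnrnpc (-0.19). Rbmx, an X-linked relative with a recognition motif very like that of Rbm3, was thus at 0.25 (SE 0.105) under saline and 0.08 (SE 0.105) under BuOE.

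Of 10 listed genes tied to the induction of Cirbp and Rbm3 by cold, 9 were measured, among them Ntrk2, the receptor for Bdnf, whose signal through Plcg1 and Creb1 induces Rbm3, Sp1, which binds the mild cold response element, Hsf1, the heat shock factor, and the temperature-sensitive splicing kinases Clk1 and Clk4. limma called 0 of 9 under each treatment, with 2 and 4 at an unadjusted p under 0.05, and edgeR and DESeq2 called 0. Their median difference was -0.08 under saline and 0.0034 under BuOE. The largest values were those of Hnrnph1 (-0.25), Plcg1 (-0.20) and Creb1 (-0.19) under saline, and Ntrk2 (-0.26), Hnrnph1 (-0.24) and Clk4 (0.23) under BuOE.

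Of 10 listed genes for targets and partners of the 2 proteins, 8 were measured, with a median of -0.0081 under saline and -0.02 under BuOE. limma called 0 under each treatment, with 2 and 1 at an unadjusted p under 0.05, while edgeR and DESeq2 called 0. Rtn3, the synaptic target of Rbm3, had the largest value under saline, 0.39 (SE 0.0883, limma adjusted p = 0.00328), which did not reach the fold threshold. Under BuOE it was at 0.07 (SE 0.0883, limma adjusted p = 0.849). Clock, a target of Cirbp, was at -0.06 (SE 0.103) under saline and 0.0028 (SE 0.103) under BuOE. Vegfa was at -0.28 and Rpa2 at 0.20 under saline, and Vegfa at -0.27 and Ptgs2 at -0.10 under BuOE.

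The clock genes were listed because Cirbp follows body temperature through the day. All 21 were measured, with median flight differences of 0.04 under saline and 0.02 under BuOE. limma called 0 under saline, with 6 at an unadjusted p under 0.05 and 0 calls by edgeR and DESeq2. Under BuOE it called 1, Dbp, a transcription factor driven directly by the clock, and edgeR and DESeq2 called the same gene. Dbp was at 61.8 ± 5.95 in FLT-BuOE and 37.6 ± 4.47 in GC-BuOE (mean over regions, SD, n = 3 mice), and at 55.4 ± 5.40 in FLT-SAL and 42.1 ± 5.97 in GC-SAL. Its averaged log2 difference was 0.72 under BuOE (SE 0.103, limma adjusted p = 1.55e-06) and 0.39 under saline (SE 0.103, limma adjusted p = 0.0227), which was below the fold threshold. Nr1d1, a clock repressor, was at 0.42 (SE 0.102, limma adjusted p = 0.00885) under saline and 0.47 (SE 0.102, limma adjusted p = 0.0057) under BuOE, also below that threshold, which it passed under both treatments once the negative-control value was subtracted, and under BuOE without FLT-BuOE mouse 3. The next largest were Hlf (0.39) under saline and Per3 (0.30) under BuOE. In single regions, Dbp was called in CA under BuOE, with 1.14 (SE 0.219, limma adjusted p = 0.011). That call was lost when any of 4 mice was left out, namely FLT-BuOE mice 1 and 3 and GC-BuOE mice 1 and 2.

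Chaperones and cochaperones lay mostly below 0 in flight when averaged over regions. Many of them are heat-inducible, and so are known to respond to temperature in the direction opposite to Cirbp and Rbm3. The list also held constitutive members such as Hspa8. The part of temperature in these differences was not tested. Of 19 listed, 18 were measured. Under BuOE, 18 of 18 had a log2 flight difference below 0, beside 8783 of all 15782 genes. Their median was -0.27, beside -0.02 over all genes, and 15 had an unadjusted p under 0.05, beside 1616 of all 15782 genes. When the negative-control value was subtracted, 17 of 18 were below 0. Under saline, 14 of 18 were below 0, beside 7360 of all 15782 genes, with a median of -0.12, beside 0.01 over all genes. In CA under saline, 9 were above 0 and 9 below, with a median of 0.02. The medians under saline in DG, FCT and CT were -0.11, -0.21 and -0.16. limma called 2 lower under BuOE, Cryab and Hsph1, and edgeR and DESeq2 called the same 2 genes. It called 0 under saline, with 5 at an unadjusted p under 0.05, beside 1561 of all genes, and 0 calls by edgeR and DESeq2.

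Cryab, a small heat shock protein of glia and lens, was at 45.5 ± 2.25 in FLT-BuOE and 79.1 ± 11.0 in GC-BuOE (mean over regions, SD, n = 3 mice), a log2 difference of -0.74 (SE 0.108, limma adjusted p = 1.55e-06). Under saline it was at 65.1 ± 16.2 in flight and 88.4 ± 4.27 on the ground, a difference of -0.45 (SE 0.108, limma adjusted p = 0.00732), below the fold threshold, which it passed with the negative-control value subtracted or without FLT-SAL mouse 2. Hsph1, a large chaperone that recharges Hsp70, was at 47.7 ± 1.44 in FLT-BuOE and 71.6 ± 6.18 in GC-BuOE, a difference of -0.59 (SE 0.0935, limma adjusted p = 1.34e-05). Its size was near the fold threshold, so the call was lost with a pseudocount of 5, with scaling to the total, and without FLT-BuOE mouse 3 or GC-BuOE mouse 3. Under saline Hsph1 was at 51.8 ± 0.736 in flight and 68.5 ± 7.08 on the ground, a difference of -0.38 (SE 0.0935, limma adjusted p = 0.00969). Hspa8, the constitutive Hsp70, was called lower in flight under BuOE in CA (-0.79, SE 0.164) and DG (-0.64, SE 0.134), with limma adjusted p of 0.0264 and 0.0195. The CA call was lost without any 1 of the FLT-BuOE mice or GC-BuOE mouse 1 or 2. The DG call was lost without FLT-BuOE mouse 3 or GC-BuOE mouse 1 or 3, and with the negative-control value subtracted. Stip1, a cochaperone that links Hsp70 and Hsp90, had the third largest value under saline at -0.33, and Hspa8 was the third under BuOE at -0.55, which was called with the negative-control value subtracted and without FLT-BuOE mouse 2 or GC-BuOE mouse 3. In single regions under BuOE, Cryab was lowest relative to ground in CT (-1.23, SE 0.172, limma adjusted p = 5.01e-05) and Hsph1 in DG (-0.92, SE 0.185, limma adjusted p = 0.0134). The Hsph1 call in DG was lost by DESeq2, with the negative-control value subtracted, and without FLT-BuOE mouse 3 or GC-BuOE mouse 1 or 3. Cryab in CT was also the only gene of the 5 lists called for BuOE in flight, at -0.81 (SE 0.172, limma adjusted p = 0.0296), a call lost without FLT-SAL mouse 2, any 1 FLT-BuOE mouse or GC-BuOE mouse 3, and with the negative-control value subtracted or 2 groups in the fit.

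**Figure D5:**
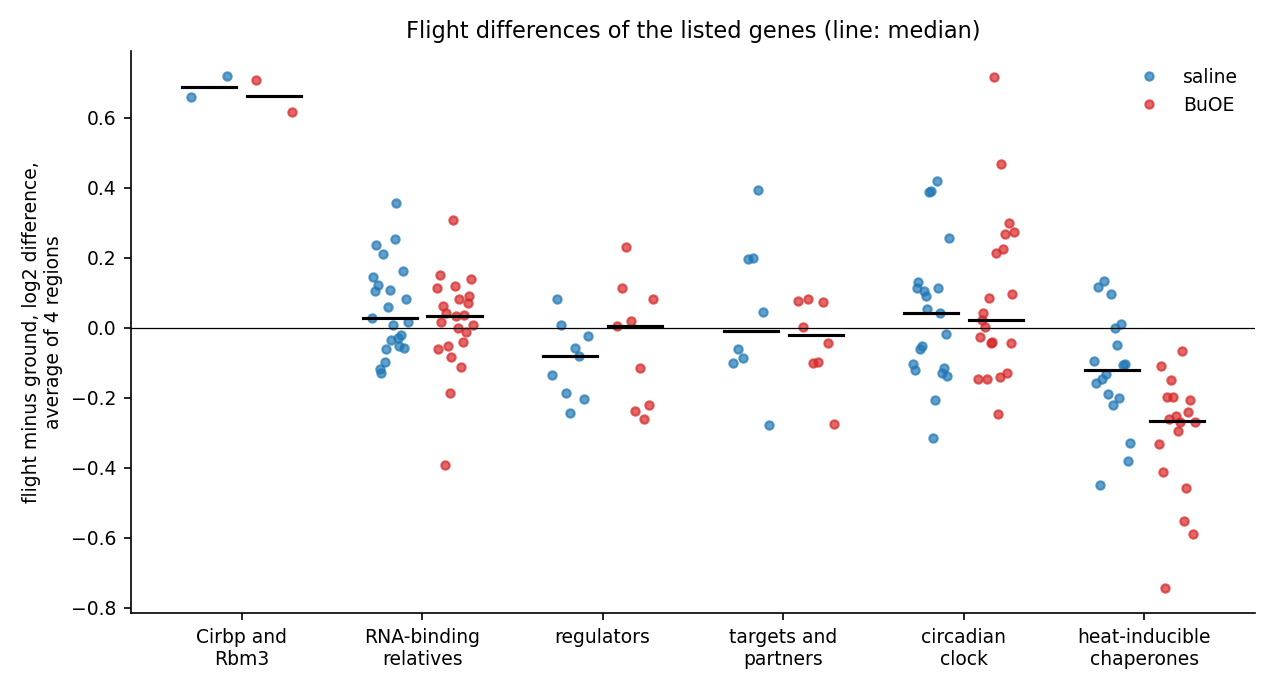
Flight minus ground log2 difference averaged over the 4 regions (y axis) under saline and under BuOE for Cirbp and Rbm3 and for each measured gene of 5 lists (x axis), 1 point per gene, with the median as a line. Cirbp and Rbm3 lie at 0.62 to 0.72, above all listed genes but Dbp under BuOE (0.72), and the 18 chaperones have a median of -0.27 under BuOE.

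Markers of other cells were read beside the flight differences. The 6 oligodendrocyte markers all lay above 0 in flight under saline on average (median 0.37), and 1 of them, the myelin gene Mobp, was called (0.71, SE 0.0869, limma adjusted p = 3.68e-09), a call that was lost without FLT-SAL mouse 2. In CT under saline, the summed level of the 6 was 1196 to 1695 in flight and 667 to 727 on the ground. In FCT under saline it was 1117 to 1804 in flight and 938 to 1111 on the ground, and in CA 485 to 669 and 427 to 505. In DG under saline it was 408 to 470 in flight and 451 to 493 on the ground. In CT under BuOE it was 607 to 744 in flight and 764 to 941 on the ground. Elsewhere under BuOE it was 446 to 529 and 446 to 465 (CA), 475 to 673 and 384 to 441 (DG), and 736 to 972 and 485 to 911 (FCT). The 6 neuron markers had a median difference of 0.20 under saline and 0.05 under BuOE. In either contrast limma called 0 of them, with 3 and 2 at an unadjusted p under 0.05 and 0 calls by edgeR and DESeq2. Under saline their summed level was 669 to 690 in flight and 513 to 583 on the ground in CA. It was 737 to 818 and 622 to 684 in DG, and 1050 to 1227 and 928 to 994 in FCT. The ranges overlapped in CT under saline (1306 to 1735 and 948 to 1822) and in every region under BuOE. For astrocyte, microglia, endothelium and choroid plexus markers, of which 6, 5, 5 and 4 were measured, the medians under saline were 0.05, -0.05, -0.04 and -0.15 and under BuOE 0.01, -0.12, -0.0048 and -0.02. For the dentate, CA1 and cortical neuron lists they were 0.04, 0.04 and -0.05 under saline and 0.01, -0.02 and 0.14 under BuOE. These averages take in all 4 regions. In DG alone the dentate list had 0.35 under saline and 0.12 under BuOE, and in CA alone the CA1 list had 0.42 and 0.13. The cortical list had -0.02 and 0.14 in FCT, and -0.26 and 0.42 in CT. Under saline, the dentate sum in DG was 500 to 560 in flight and 380 to 431 on the ground. The CA1 sum in CA was 585 to 633 and 426 to 486. In single regions under saline, the genes limma called included Mobp (1.33) and Cnp (0.87), higher in CT, the CA1 marker Wfs1 (0.82), higher in CA, and the dentate marker C1ql2 (0.60), higher in DG. The Wfs1 and C1ql2 calls were lost when FLT-SAL mice or GC-SAL mouse 1 or 3 were left out singly, that of C1ql2 also with a pseudocount of 5, scaling to the total or the negative-control value subtracted, and that of Cnp without FLT-SAL mouse 2. For BuOE against saline in flight, the genes limma called in CT included Mobp (-1.21) and Mbp (-0.81), which were lower, and the cortical marker Lamp5 (1.19), which was higher. The Mbp call was lost with the negative-control value subtracted and without FLT-SAL mouse 2 or 3 or FLT-BuOE mouse 1 or 2. No marker of these lists was at 0 in every AOI of a region. The part of cell composition in the differences of Cirbp and Rbm3 was not tested.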

How the data were processed

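RNA of 48 AOIs, 4 regions of 12 mice, was hybridized with GeoMx mouse whole transcriptome probes. Per the labels, the authors turned sequencing reads into deduplicated probe counts with the GeoMx NGS Pipeline (2.3.4), 1 count file per AOI, and deposited Q3-normalized values (signal), each AOI multiplied by 1 factor. The genome build behind the probes is not given in the sources used here. The authors' tables of their own comparisons hold log2 fold changes and p-values and were not used. Totals come from the count files, in which 15770 genes matched 1 probe.

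Q3-normalized values were tested with limma (3.58.1, R 4.3.3) on log2(value + 1), with 1 fit of 12 AOIs per region, and 1 fit of 48 AOIs with the mouse as random block (correlation within mice 0.0255) for averages over regions and region contrasts. Calls needed a Benjamini-Hochberg adjusted p under 0.05 over 15782 genes and a fold beyond 1.5, with no fold threshold for the difference of effects. Alternatives were edgeR (4.0.16) and DESeq2 (1.42.0) on 15772 genes with whole counts, pseudocounts of 0.5 and 5, a filter, scaling to the total, subtraction of the negative-control value, a 2-group fit, a replicate block, and leaving out each mouse or 1 AOI. The fits were tested on simulated data. Same-group mice differed by more than counting noise in all 48 pairs (chi-square per gene 1.09 to 2.26).

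The 2 genes and all lists were chosen with earlier results of these data known. Named were both genes, the 5 genes most like each, and of each list the called genes and the 3 with the largest averaged flight difference. Clock and Ptgds fall outside this rule and were chosen after their values were seen. The mice are separate animals, and the labels' mouse numbers did not pair them across groups. A result on 1 listed marker is not reported here.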

Additional observations from a re-analysis of the deposited data

How the results depend on the processing

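Each group held 3 mice on 1 slide, so slide effects cannot be told apart from group effects, and counts as low as 13 limit Cirbp in single AOIs. The averaged flight differences stayed above 0 throughout. Without single mice they ran from 0.543 to 0.733 (saline) and 0.6 to 0.807 (BuOE) for Cirbp, and from 0.679 to 0.788 and 0.554 to 0.686 for Rbm3. With the negative-control value subtracted they grew to 0.998 and 1.07 for Cirbp and to 0.866 and 0.746 for Rbm3, Cirbp in DG against CA rose to 0.842 and was called, and the genes called in the averaged flight contrasts rose from 15 and 14 to 73 and 33. Of 8 gene and region pairs, 2 were called higher in flight under each treatment. Under saline this was 1 with the negative-control value subtracted, with 2 groups in the fit, or without the GC-SAL CT AOI of fewest nuclei, and 1 to 3 without single mice. Under BuOE it was 1 with the negative-control value subtracted or by DESeq2, and 1 to 2 without single mice.

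BuOE differences near 0 changed sign, and none was called. Cirbp on the ground in FCT (0.00965) became -0.0214 with scaling to the total, -0.00389 by edgeR and -0.0055 by DESeq2. Its average on the ground (-0.0127) became 0.00929 with the negative-control value subtracted, 0.00916 without the CT AOI, 0.0249 by edgeR and 0.026 by DESeq2. Rbm3 in flight in FCT (-0.00346) became 0.0181 with scaling to the total, 0.0543 with the negative-control value subtracted, 0.0558 by edgeR and 0.0614 by DESeq2, and its difference of effects in CA (-0.0611) became 0.0289 by edgeR and 0.0101 by DESeq2. Without single mice, Cirbp on the ground ran from -0.0113 to 0.235 in CA, -0.066 to 0.0831 in FCT and -0.0392 to 0.0119 on average. In flight it ran from -0.19 to 0.186 in CT, -0.0162 to 0.25 in DG, -0.0742 to 0.253 in FCT and -0.0708 to 0.152 on average, and its difference of effects from -0.0839 to 0.243 in FCT and -0.0581 to 0.165 on average. Rbm3 ran from -0.026 to 0.141 in DG and -0.0719 to 0.0186 in FCT on the ground, from -0.0625 to 0.0751 in FCT and -0.0205 to 0.098 on average in flight, and for the difference of effects from -0.186 to 0.104 in CA and -0.0365 to 0.101 in FCT. The cause of these shifts was not tested. With the replicate block, the averaged flight difference of Cirbp was 0.658 under saline and 0.707 under BuOE, and the block changed no call of either gene. Deviations of same-numbered mice correlated at -0.179 to 0.125, with 1 of 72 values over 0.1.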
